A study of Mus musculus with 4 samples.

Results

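Type 2 conventional dendritic cells (cDC2) of the mouse liver are described here, and they were chosen by measured transcripts, as 286 of the 30362 kept cells. Cells were selected on at least 2 unique molecular identifiers (UMIs, each a tagged transcript molecule) of Cd209a plus Mgl2 and at least 10 UMIs of H2-Aa. They also had to hold 0 UMIs of Xcr1, Clec9a, Siglech, Cd3e, Cd79a, F13a1 and Chil3 and at most 2 UMIs of Clec4f, Vsig4 and Timd4 together. The study sequenced single-cell RNA of 4 untreated mouse livers, 1 mouse for each of the genotypes WT, YAPKO, TAZKO and DKO, with hepatocytes and non-parenchymal cells isolated apart after digestion of the liver and mixed for loading. YAPKO mice carried Yap-loxP alleles, TAZKO mice Taz-loxP alleles and DKO mice both, each crossed to a Cre under albumin control. This Cre acts in hepatocytes and biliary cells, so the cDC2 of all 4 livers should have kept intact alleles, which was not measured. They would then report on a liver in which other cells were changed. Age, sex and strain are not given in the sample labels.

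Conventional dendritic cells take up antigen, carry it to lymph nodes and present it to T cells, and they depend on the cytokine receptor FLT3 and express the transcription factor ZBTB46. The cDC2 branch presents antigen on MHC class II mainly to CD4 T cells, is marked by SIRPA and CD11b, and relies on IRF4, KLF4 and ZEB2, whereas the cDC1 branch relies on IRF8 and BATF3 and is marked by XCR1 and CLEC9A. In the liver, cDC2 lie mostly near the portal tracts.

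Each genotype had 1 library, so no test between genotypes could be made, every comparison below is between libraries, and the effect of a genotype cannot be told apart from that of a mouse or a preparation. Levels are given as CPM, the UMIs of a gene summed over the cDC2 of a library and scaled to 1000000 of their UMIs, with exact 95% intervals in parentheses that cover counting error only. Ratios are log2 ratios to the WT library, and a gene was compared when it had at least 50 UMIs over the cDC2 of both libraries. For counts of genes past 2-fold and medians of lists, 1 was added to each count. The cDC2 held 380547 UMIs in WT, 1053898 in YAPKO, 565130 in TAZKO and 1088811 in DKO, so that 1 UMI stood for 2.63, 0.949, 1.77 and 0.918 CPM. Their median depth was 11319 UMIs in WT, 11034 in YAPKO, 8911 in TAZKO and 8127 in DKO. Pairs of libraries shared between 10 and 67 cell barcodes (23 for WT and YAPKO, 67 for WT and TAZKO, 37 for WT and DKO, 35 for YAPKO and TAZKO, 10 for YAPKO and DKO and 42 for TAZKO and DKO), and 0 barcodes were cDC2 in more than 1 library. Xist had 0 UMIs in the cDC2 of each library and the Y-linked genes Ddx3y, Eif2s3y, Kdm5d and Uty had UMIs in all 4.

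The lectin genes Cd209a and Mgl2 set the selection, and their levels are given as a description. Of the 78 kept cells in WT with enough lectin UMIs, 31 met the other limits, against 82 of 197 in YAPKO, 57 of 158 in TAZKO and 116 of 328 in DKO. Siglech, a plasmacytoid marker, turned away the most of these cells, with 35 in WT, 68 in YAPKO, 70 in TAZKO and 157 in DKO, while Xcr1 and Clec9a, the cDC1 markers, turned away 22, 54, 38 and 64, and H2-Aa 7, 13, 40 and 67. Just inside the lectin limit, 3, 5, 2 and 12 cells held exactly 2 UMIs, and just outside it 0, 10, 8 and 17 cells met every other limit with 1 UMI. For H2-Aa the lowest cell inside held 68 UMIs in WT, 40 in YAPKO, 13 in TAZKO and 11 in DKO, and the cells that failed only this limit were 2 in TAZKO, with at most 5 UMIs, and 3 in DKO, with at most 7. Cd209a without Mgl2 was seen in 21, 32, 38 and 62 cDC2, Mgl2 without Cd209a in 0, 4, 0 and 7, and both genes in 10, 46, 19 and 47. Because every cDC2 had to hold at least 1 of these genes, the counts describe the selection and not the cells.

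The cDC2 made up 0.433% (0.295 to 0.614) of the kept cells in WT, 1.31% (1.04 to 1.62) in YAPKO, 0.660% (0.5002 to 0.854) in TAZKO and 1.40% (1.16 to 1.68) in DKO. The share was high in YAPKO and DKO and low in WT and TAZKO, whose intervals overlapped each other and not those of the other pair. Because separate fractions were mixed, the share depends on the mixing, and the number of cDC2 for each 100 cDC1 (kept cells with at least 2 UMIs of Xcr1 plus Clec9a, at least 10 of H2-Aa and 0 of Cd209a and Mgl2) was 83.8 in WT, 146 in YAPKO, 127 in TAZKO and 184 in DKO. Beside cDC1, the cDC2 were again fewest in WT and most numerous in DKO, but TAZKO lay near YAPKO. Plasmacytoid cells with Siglech numbered 31 in WT, 57 in YAPKO, 89 in TAZKO and 142 in DKO, as many as the cDC2 in WT, and 144, 64.0 and 81.7 cDC2 stood beside 100 of them in YAPKO, TAZKO and DKO. Beside 100 monocytes there were 62.0 cDC2 in WT, 27.9 in YAPKO, 228 in TAZKO and 113 in DKO, with YAPKO lowest and TAZKO highest. Beside 100 Kupffer cells there were 4.51 cDC2 in WT, 13.6 in YAPKO, 4.77 in TAZKO and 14.0 in DKO. Beside 100 B cells there were 7.09, 18.6, 9.83 and 33.8. The order of the shares was therefore kept with cDC1, Kupffer cells and B cells as the base. It changed with plasmacytoid cells and monocytes, and YAPKO lay above DKO when the limits were applied after each cell was thinned to 2000 UMIs.

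**Figure D1:**
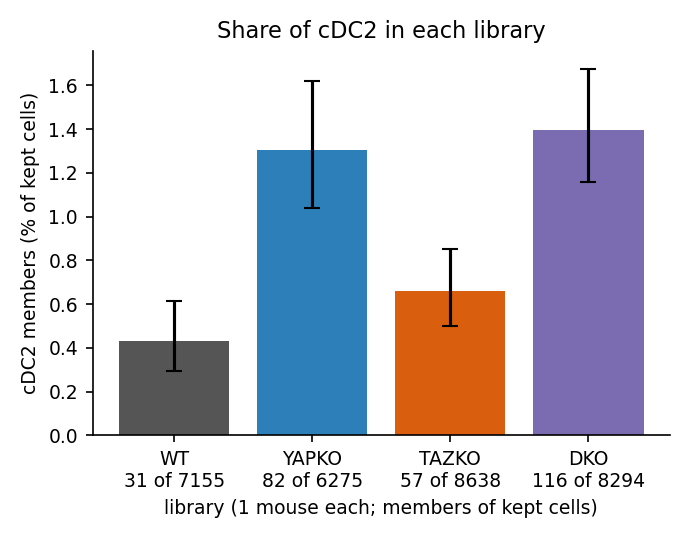
Share of cDC2 among the kept cells of each library, with exact binomial intervals as error bars and the numbers of cells under each bar. The share is higher in YAPKO and DKO than in WT and TAZKO.

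The label was checked on genes that the selection did not use. Clec10a, the lectin given as a further marker of these cells, was counted in 20 of 31 cDC2 in WT, 62 of 82 in YAPKO, 20 of 57 in TAZKO and 61 of 116 in DKO. Its level in cDC1 was 0 CPM in WT, YAPKO and TAZKO and 7.10 in DKO. Flt3, the receptor for the dendritic cell growth factor FLT3L, was 78.8 CPM in WT, 73.1 in YAPKO, 97.3 in TAZKO and 85.4 in DKO, and Zbtb46, the transcription factor of conventional dendritic cells, was 28.9, 29.4, 53.1 and 36.7 CPM. Both genes were lower than in cDC1 in all 4 libraries, where Flt3 was 110.1, 119.7, 171 and 125 CPM and Zbtb46 50.3, 39.6, 55.5 and 44.96 CPM. Beside cDC1, the data thus bear the label for the cDC2 of each library as a whole, but less well for some cells of DKO described below. Of 8 compared genes of a monocyte and macrophage list, 3 (Fcgr1, Cd14 and Ms4a4c) were at least 2-fold higher than in cDC1 in each library and 0 lower (of all genes 2.92% and 1.8%). This list summed to 938 CPM in WT, 947 in YAPKO, 580 in TAZKO and 807 in DKO, against 247, 284, 300 and 270 in cDC1. Whether some cDC2 derived from monocytes was not tested. The share of Clec10a-positive cells was lowest in TAZKO.

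Genes of the cDC2 program were far more abundant in cDC2 than in cDC1 of the same library, a comparison of groups that were chosen by transcripts and so a description without a test. Of 6433 genes, 188 (2.92%) were at least 2-fold higher in cDC2 in each of the 4 libraries and 116 (1.8%) at least 2-fold lower. From a list of cDC2 factors and surface proteins 8 of 10 were higher, and from a list of cDC1 genes 7 of 9 were lower. Sirpa, an inhibitory receptor that binds CD47, was 124 CPM in WT, 135 in YAPKO, 195 in TAZKO and 115 in DKO, against 7.87, 2.08, 14.7 and 14.2 CPM in cDC1. Itgam, which encodes CD11b, was 71.0, 80.7, 149 and 68.0 CPM in the same order, and cDC1 held 1.57, 1.04, 0 and 2.37. Zeb2, a transcription factor of the cDC2 branch, was 155, 203, 244 and 321 CPM in cDC2 and 4.72, 20.8, 37.5 and 71.0 in cDC1. These 3 genes separated the branches in all 4 libraries, and Sirpa and Itgam were highest in TAZKO.

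Calcium-binding S100a4 was 1177 CPM in WT, 1018 in YAPKO, 991 in TAZKO and 954 in DKO in cDC2 and 20.5, 21.9, 68.5 and 30.8 CPM in cDC1. The membrane protein gene Tmem176b was 597, 714, 409 and 737 CPM in cDC2, with 14.2, 88.5, 22.8 and 110.0 CPM in cDC1. Further genes that set cDC2 above cDC1 by the naming rule were the lipid transporter Abca9 (49.9, 35.1, 47.8 and 66.1 CPM in cDC2), Skint3 (78.8, 62.6, 74.3 and 71.6), the lectin Cd209d (26.3, 28.5, 40.7 and 94.6), the interferon-induced Ifitm6 (221, 289, 138 and 200.2) and Mcemp1 (116, 146, 138 and 180.0). Of these, Skint3 differed little between libraries, and Cd209d was highest in DKO. Klrd1, which encodes the NK receptor chain CD94, was 297 CPM in WT, 181 in YAPKO, 395 in TAZKO and 286 in DKO in cDC2 and at most 29.4 CPM in cDC1. It was seen in 87.1%, 56.1%, 86.0% and 58.6% of the cDC2, or 38.7%, 24.4%, 54.4% and 30.2% once each cell was thinned to 2000 UMIs, a step that left out 0 cDC2. In B cells, taken as a background type, which had median depths of 2959, 2907, 2877.5 and 2206 UMIs, 0.229%, 0.455%, 0.172% and 0.583% of cells held a Klrd1 UMI. The NK list summed to 436 CPM in WT, 211 in YAPKO, 409 in TAZKO and 296 in DKO, of which Klrd1 was the most abundant gene in each library, with 6, 7, 2 and 4 of 9 genes detected.

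The cDC1 program was low or absent. Irf8, the transcription factor that drives cDC1, was 26.3, 36.1, 93.8 and 43.2 CPM in the cDC2 of WT, YAPKO, TAZKO and DKO, against 1553, 1425, 1597 and 1385 CPM in cDC1, and 23 of the 53 UMIs in TAZKO came from 1 cell. Tlr3, a sensor of double-stranded RNA, had 1, 11, 3 and 14 UMIs in cDC2 and 309.9, 232, 233 and 241 CPM in cDC1. Itgae, which encodes CD103, had 0 UMIs in the cDC2 of WT, TAZKO and DKO and 8 in YAPKO. Gcsam and Gpr141b had 0 UMIs in the cDC2 of all 4 libraries and up to 194 and 143 CPM in cDC1. Snx22, P2ry14 and Cxcr3, the receptor for CXCL9, had at most 2, 6 and 4 UMIs in the cDC2 of any library. In contrast, Batf3, a cofactor of IRF8, was 152 CPM in WT, 93.9 in YAPKO, 111 in TAZKO and 131 in DKO in cDC2, against 288, 258, 271 and 285 CPM in cDC1. Wdfy4, needed for cross-presentation, was 73.6, 60.7, 159 and 94.6 CPM in cDC2 and highest in TAZKO, as it was in cDC1 (356, 399.8, 629.9 and 413 CPM).

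**Figure D2:**
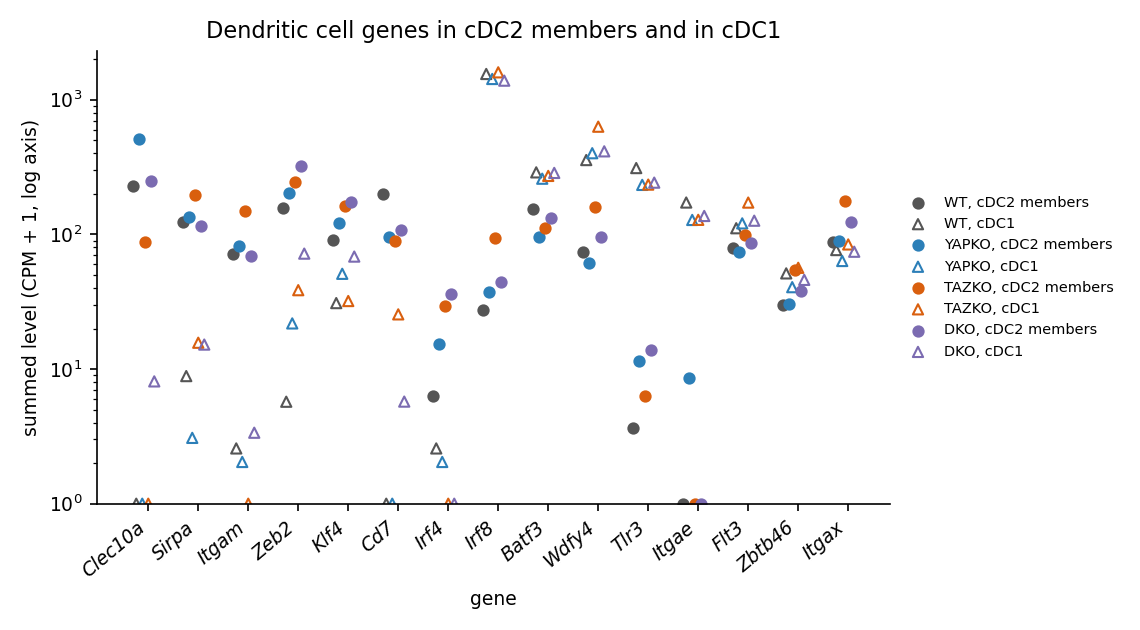
Summed level of dendritic cell genes, with 1 added to each CPM on a log axis, in cDC2 (filled circles) and cDC1 (open triangles) of each library, coloured by library. Sirpa, Itgam and Zeb2 are higher in cDC2, and Irf8, Tlr3 and Itgae higher in cDC1.

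The genes deleted in hepatocytes were barely counted in cDC2, and since these cells should keep intact alleles their level is no check of the genotype. Yap1, which encodes YAP, had 0 UMIs in WT, 4 in YAPKO, 6 in TAZKO and 5 in DKO, or 0, 3.795, 10.6 and 4.59 CPM. Wwtr1, which encodes TAZ, had 2, 26, 10 and 15 UMIs, or 5.26, 24.7, 17.7 and 13.8 CPM. The method counts a transcript by its 3′ end, so these counts do not show which exons it holds. Most of the UMIs came from cDC2 that also held transcripts of endothelial cells or hepatocytes, described next. Without those cells Wwtr1 had 0 UMIs in all 4 libraries and Yap1 had 1 UMI in DKO and 0 elsewhere.

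Endothelial transcripts were concentrated in single cDC2. A list of 11 endothelial markers, all of which were detected in each library, summed to 683 CPM in WT, 2453 in YAPKO, 2348 in TAZKO and 1742 in DKO, led by Dnase1l3 in WT and DKO and by Ptprb in YAPKO and TAZKO. The median cDC2 held 1, 1.5, 1 and 1 UMIs of this list, but 4 of 31 cells in WT (12.9%), 16 of 82 in YAPKO (19.5%), 17 of 57 in TAZKO (29.8%) and 19 of 116 in DKO (16.4%) held at least 10, and the highest held 104, 217, 178 and 167. These cells held 81.5%, 96.2%, 98.6% and 90.7% of all endothelial UMIs of the cDC2. The share of these cells was lowest in WT and highest in TAZKO, but the intervals overlapped (3.63% to 29.8% and 18.4% to 43.4%). Hepatocyte markers passed 2% of the UMIs of a cDC2 in 3, 3, 5 and 4 cells, up to 3.85% in WT, 22.8% in YAPKO, 22.5% in TAZKO and 22.1% in DKO. Cells with either kind of transcripts numbered 6, 19, 20 and 22 and are called carrier cells below. Carrier cells had a median depth of 13729 UMIs in WT, 16658 in YAPKO, 11639 in TAZKO and 13605 in DKO, against 11242, 10292, 7926 and 7489 for the others. Whether a carrier barcode held 1 cell or 2 was not tested. The automatic threshold of Scrublet, a doublet score, marked 3, 1, 4 and 0 of all kept cells and so did not work on these libraries.

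**Figure D3:**
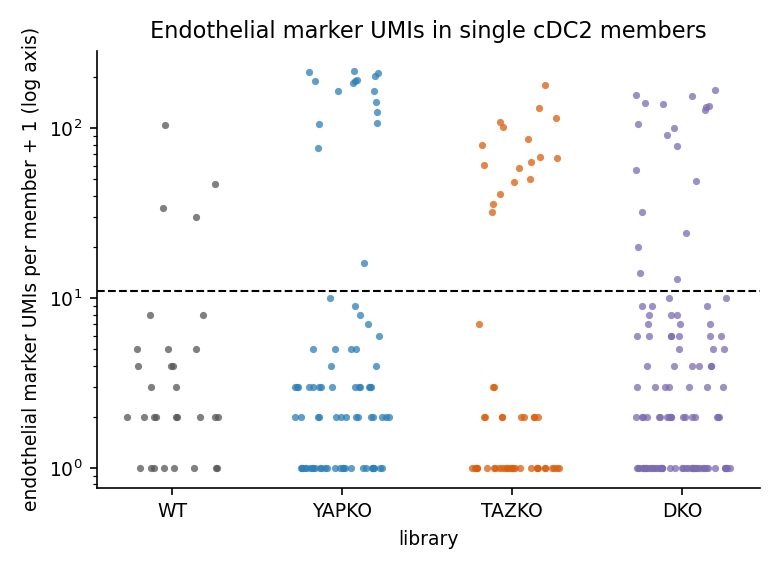
UMIs of 11 endothelial markers in each cDC2, with 1 added on a log axis, by library, where each point is 1 cell and the dashed line marks 10 UMIs. Most cells lie below the line, and in DKO the values run through it without a gap.

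Of the genes compared, 265 of 3909 (6.78%) were at least 2-fold higher in YAPKO than in WT and 63 (1.61%) at least 2-fold lower. In TAZKO 333 of 2842 (11.7%) were higher and 122 (4.29%) lower, and in DKO 287 of 3980 (7.21%) were higher and 104 (2.61%) lower. The 3 comparisons share the WT library with its 31 cDC2. Without the carrier cells, a choice made after the data were seen, 54 genes of 2583 were higher in YAPKO, 83 of 1673 in TAZKO and 103 of 2760 in DKO, and 54, 65 and 98 were lower. The higher genes thus depended on the carrier cells far more than the lower genes did. Endothelial list genes were at least 2-fold higher in 10 of 11 cases in each library, with a median log2 ratio of 2.0 in YAPKO, 2.06 in TAZKO and 1.30 in DKO, where the median of all genes was 0.01, 0.06 and 0.04. Scaling by median-of-ratios moved the median of all genes in TAZKO from 0.06 to -0.18, with 224 genes higher and 254 lower, so that the excess of higher genes there was not kept, and thinning moved it to -0.14. Several results below are therefore also given without the carrier cells.

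Genes of the MHC class II pathway, the main product of cDC2, were lower in TAZKO. The 12 listed genes summed to 60626 CPM in WT, 56503 in YAPKO, 30370.0 in TAZKO and 50871 in DKO. Of the 11 that were compared, 6 were at least 2-fold lower in TAZKO (of all genes 4.29%) and 0 were in YAPKO and DKO, where 1.61% and 2.61% of all genes were. The median log2 ratio of the list was -0.01 in YAPKO, -1.0 in TAZKO and -0.25 in DKO. In TAZKO it was between -1.24 and -0.76 under every alternative, thinning and the other scalings included, and without the carrier cells it was -0.76, with 1 of 11 genes past 2-fold (of all genes 3.89%). In YAPKO, where it was near 0, it lay between -0.10 and 0.11 under the alternatives, with both signs. H2-Aa was part of the selection and is not counted in this list. Beside cDC1, only H2-DMb2 of the 11 genes was at least 2-fold higher in cDC2 in all 4 libraries (of all genes 2.92%).

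Cd74, the invariant chain that guides class II molecules to endosomes, was 29150.1 CPM in WT, 26860.3 in YAPKO, 13860.5 in TAZKO and 24707 in DKO. Its log2 ratio was -0.12 (-0.15 to -0.09) in YAPKO, -1.07 (-1.11 to -1.03) in TAZKO and -0.24 (-0.27 to -0.21) in DKO, and 0.08, -0.78 and -0.07 without the carrier cells. Only TAZKO lay far from the others. The class II beta chain H2-Eb1 was 12243 CPM in WT, 11119.7 in YAPKO, 5942 in TAZKO and 10073 in DKO, with a log2 ratio of -1.04 (-1.11 to -0.98) in TAZKO, and -0.76 without the carrier cells. H2-DMb2, a chain of the DM complex that loads peptides, was 360.0, 306, 142 and 232 CPM in the same order. Its ratio in TAZKO was -1.35 (-1.76 to -0.94), and -1.04 (-1.53 to -0.57) without the carrier cells. Like Cd74, both genes were lowest in TAZKO.

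Ctss, the protease that degrades the invariant chain, was 1390.1 CPM in WT, 1631 in YAPKO, 625 in TAZKO and 1225 in DKO, a log2 ratio of -1.15 (-1.35 to -0.96) in TAZKO, and -0.89 without the carrier cells. Ifi30, a thiol reductase of antigen processing, was 1887 CPM in WT, 2143 in YAPKO, 894 in TAZKO and 1479.6 in DKO, with -1.08 (-1.25 to -0.91) in TAZKO and -0.84 without the carrier cells. Both were lowest in TAZKO either way, though under 2-fold without those cells. Ciita, the transactivator of class II genes, was 289 CPM in WT, 298 in YAPKO, 391 in TAZKO and 283 in DKO, and its ratio in TAZKO was 0.44 (0.10 to 0.78). Ciita was thus slightly higher in the library where the genes it controls were lower. The difference was not particular to cDC2, because Cd74 was also lowest in TAZKO in cDC1 (24082, 21948, 13449 and 17655 CPM) and B cells (14495, 15206, 7596 and 9872 CPM). MHC class I genes had medians of -0.10, -0.60 and -0.33, with 1 of 9 at least 2-fold lower in TAZKO and 1 of 10 in DKO (of all genes 4.29% and 2.61%).

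**Figure D4:**
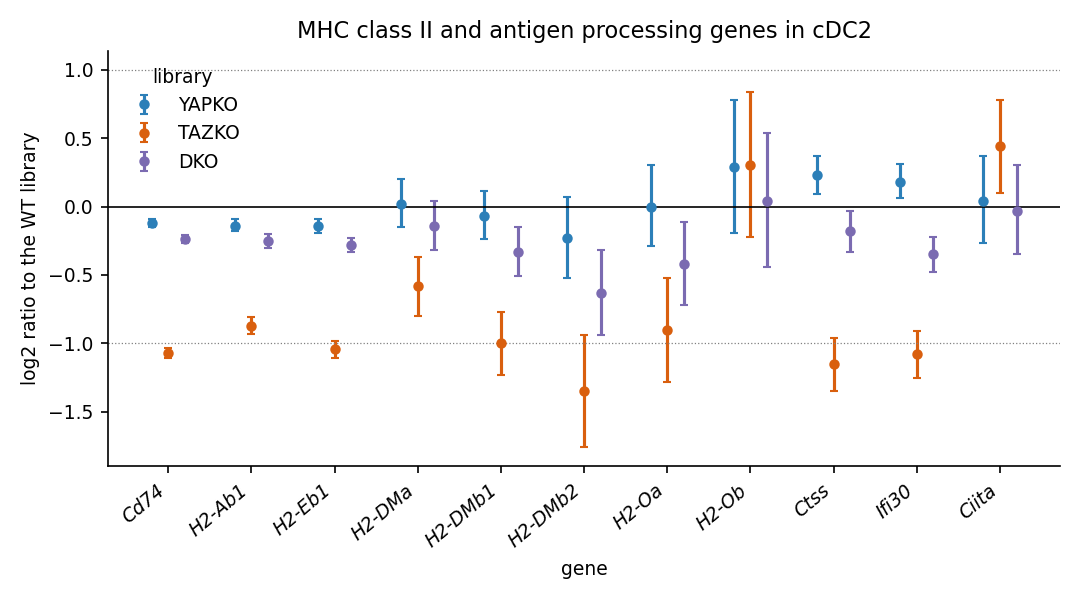
Log2 ratio to WT of class II and antigen processing genes in the cDC2 of YAPKO, TAZKO and DKO, with exact counting intervals as error bars and dotted lines at 2-fold. In TAZKO most genes lie near or below the lower line, and Ciita lies above 0.

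Promoters of class II genes carry a Y box with the CCAAT core in reverse, and promoters of up to 300 bases from RefSeq GRCm38.p6 were searched for TGATTGG on both strands. Of 13 class II pathway genes with H2-Aa included, 10 had a promoter entry and 7 of them held the motif (H2-Aa, H2-DMb1, H2-DMb2, H2-Eb1, H2-Eb2, H2-Oa and H2-Ob). Ctss, H2-DMa and Ifi30 held none, and Cd74, Ciita and H2-Ab1 had no entry. Over the genes with an entry on the chromosomes searched, which were not all, 2431 of 27025 (9%) held it, and the match is a description only. The promoters of H2-Eb1 (chr17:34305617-34305916, plus strand) and H2-DMb2 (chr17:34144999-34145298, plus strand) are shown because both genes were lower in TAZKO. Each sequence runs past the start of its gene. Capitals mark the motif, and 54 bases lie between its end and the gene start in H2-Eb1 and 85 in H2-DMb2.
H2-Eb1: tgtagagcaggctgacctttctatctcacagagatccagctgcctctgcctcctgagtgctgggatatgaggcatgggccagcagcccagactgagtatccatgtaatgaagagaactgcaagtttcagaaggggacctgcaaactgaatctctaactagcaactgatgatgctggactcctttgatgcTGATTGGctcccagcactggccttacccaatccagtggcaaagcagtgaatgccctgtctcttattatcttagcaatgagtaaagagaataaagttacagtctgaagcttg
H2-DMb2: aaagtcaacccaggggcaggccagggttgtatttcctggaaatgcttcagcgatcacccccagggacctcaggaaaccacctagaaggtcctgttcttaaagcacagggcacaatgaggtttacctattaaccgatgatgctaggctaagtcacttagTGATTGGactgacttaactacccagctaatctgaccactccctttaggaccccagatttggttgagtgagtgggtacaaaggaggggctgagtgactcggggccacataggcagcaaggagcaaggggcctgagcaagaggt

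Among surface receptors, Klra17, a lectin-like receptor of the Ly49 family, was low in TAZKO, with 244 CPM in WT, 176 in YAPKO, 17.7 in TAZKO and 251 in DKO. It was counted in 27 of 31, 57 of 82, 8 of 57 and 87 of 116 cDC2, or in 38.7%, 25.6%, 8.77% and 39.7% after thinning. The log2 ratio was -0.47 (-0.84 to -0.09) in YAPKO, -3.79 (-4.89 to -2.84) in TAZKO and 0.04 (-0.31 to 0.39) in DKO, and without the carrier cells it was -3.43 (-4.79 to -2.31) in TAZKO. In B cells at most 0.682% of cells of a library held a Klra17 UMI. Plasmacytoid cells, which also express Klra17, held 183, 204, 215 and 253 CPM and so did not share the low level of TAZKO, although this contrast was not tested. Cells of the cDC1, monocyte, Kupffer and B groups held at most 18.9 CPM.

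Clec10a was 226 CPM in WT, 508 in YAPKO, 86.7 in TAZKO and 246 in DKO, with log2 ratios of 1.17 (0.84 to 1.51), -1.38 (-1.92 to -0.86) and 0.12 (-0.23 to 0.49). This galactose-binding lectin was thus high in YAPKO and low in TAZKO, also without the carrier cells (1.29 and -1.74). Its neighbour in function Mgl2 helped to choose the cells and is not compared. Epcam, an adhesion molecule, was 97.2 CPM in WT, 77.8 in YAPKO, 19.5 in TAZKO and 84.5 in DKO, with too few UMIs in WT and TAZKO (37 and 11) to be compared. Fcer1g, the signalling chain of Fc receptors, was 2806 CPM in WT, 2502 in YAPKO, 1536 in TAZKO and 2176 in DKO, with -0.87 (-1.0 to -0.74) in TAZKO. Lyz2, which encodes lysozyme, was 969.7 CPM in WT, 1147 in YAPKO, 435 in TAZKO and 1450.2 in DKO, with -1.16 (-1.39 to -0.92) in TAZKO. All 3 genes were lowest in TAZKO, and without the carrier cells the ratios of Fcer1g and Lyz2 there were -0.56 and -0.98. Itgax, which encodes CD11c, was 86.7 CPM in WT, 88.2 in YAPKO, 175 in TAZKO and 122 in DKO and highest in TAZKO, at 1.01 (0.43 to 1.63).

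Gdpd3 and Cope were low in TAZKO in other cell types as well. Gdpd3, a lysophospholipase D of lipid metabolism, was 252 CPM in WT, 261 in YAPKO, 51.3 in TAZKO and 236 in DKO in cDC2, a log2 ratio of -2.30 (-2.95 to -1.69). It was also lowest in TAZKO in cDC1 (154, 176, 55.5 and 157 CPM), plasmacytoid cells (211, 306, 15.6 and 130.1) and B cells (282, 309.8, 37.0 and 172). Cope, a subunit of the COPI vesicle coat, was 187 CPM in WT, 133 in YAPKO, 60.2 in TAZKO and 126 in DKO, with -1.63 (-2.27 to -1.02) in TAZKO. It was also lowest in TAZKO in cDC1 (157, 180.1, 103 and 127 CPM) and B cells (126, 137, 75.9 and 144), but not in monocytes (196, 176, 148 and 137). Spi1, which encodes the myeloid factor PU.1, was 878 CPM in WT, 530.4 in YAPKO, 388 in TAZKO and 535 in DKO, highest in WT. The ratios of Spi1 were -0.73 (-0.92 to -0.53), -1.18 (-1.43 to -0.93) and -0.71 (-0.91 to -0.51). In cDC1 it was 330.4, 387, 276 and 354 CPM, so that the high level in WT was seen in cDC2 and not in cDC1, a contrast that was not tested.

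The transcription factors Zeb2 and Klf4 of the cDC2 branch were not lower in the knockout libraries. Zeb2 had log2 ratios of 0.39 (-0.03 to 0.83) in YAPKO, 0.66 (0.21 to 1.12) in TAZKO and 1.05 (0.65 to 1.48) in DKO. Klf4, which is needed for a part of the cDC2, was 89.3 CPM in WT, 121 in YAPKO, 161 in TAZKO and 175 in DKO, with ratios of 0.43 (-0.12 to 1.02), 0.85 (0.27 to 1.46) and 0.97 (0.43 to 1.54). Both were lowest in WT and highest in DKO, although without the carrier cells Klf4 was highest in TAZKO (209 CPM against 203 in DKO). Irf4, which controls migration and antigen presentation of cDC2, had 2 UMIs in WT, 15 in YAPKO, 16 in TAZKO and 38 in DKO, or 5.26, 14.2, 28.3 and 34.9 CPM. These are too few UMIs for a comparison. Notch2, the receptor behind the ESAM-positive cDC2 of the spleen, was 68.3 CPM in WT, 119 in YAPKO, 159 in TAZKO and 122 in DKO. The median of the 10 compared genes of this list was 0.31, 0.64 and 0.28, and 0.38, 0.85 and 0.48 without the carrier cells. Thinning, which left fewer genes to compare, gave -0.72 in TAZKO. Of the 10 genes, 1, 2 and 1 were at least 2-fold higher (of all genes 6.78%, 11.7% and 7.21%). At least 2-fold lower were 1, 2 and 0 (of all genes 1.61%, 4.29% and 2.61%), with Clec10a and Cd7 lower in TAZKO.

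Wls, the carrier protein needed for the secretion of WNT ligands, was low in DKO. Its level was 449 CPM in WT, 428 in YAPKO, 375 in TAZKO and 55.1 in DKO, and it was counted in 30 of 31, 76 of 82, 48 of 57 and 39 of 116 cDC2. After thinning, 61.3%, 50%, 50.9% and 5.17% of the cDC2 held a UMI, and unthinned B cells 16.2%, 15.0%, 23.3% and 7.58%. The log2 ratio was -0.07 (-0.33 to 0.19) in YAPKO, -0.26 (-0.56 to 0.04) in TAZKO and -3.03 (-3.48 to -2.60) in DKO, and -3.11 (-3.67 to -2.57) in DKO without the carrier cells. Only DKO was low. Levels in cDC1 were 67.6, 77.0, 39.2 and 23.7 CPM and in plasmacytoid cells 129, 150.2, 140.2 and 38.0 CPM, also lowest in DKO, while those of Kupffer cells were 62.5, 59.9, 110.4 and 70.4 CPM. WT cDC2 held more Wls than WT cells of any of the 5 groups beside them.

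Ly6a, a glycolipid-anchored surface protein that interferon induces, was 639 CPM in WT, 542 in YAPKO, 366 in TAZKO and 128 in DKO. Its log2 ratio was -0.24 (-0.46 to -0.01) in YAPKO, -0.80 (-1.08 to -0.53) in TAZKO and -2.32 (-2.63 to -2.02) in DKO, and cDC1 showed the same order with 497, 249, 193 and 103 CPM. Among interferon-stimulated genes, 2 of 15 were at least 2-fold higher and 0 lower in YAPKO (of all genes 6.78% and 1.61%). In TAZKO 1 of 13 was higher and 3 lower (of all genes 11.7% and 4.29%). In DKO 3 of 15 were higher and 4 lower (of all genes 7.21% and 2.61%). The medians were -0.15, -0.30 and -0.36, and thinning moved them to 0.04, 0.03 and -0.61. Without the carrier cells 0 of 11 genes were past 2-fold in YAPKO, and the medians were -0.35, -0.62 and -0.34. Irf7, the factor that amplifies interferon production, was 181 CPM in WT, 110.1 in YAPKO, 56.6 in TAZKO and 60.6 in DKO, with ratios of -0.72 (-1.16 to -0.27), -1.68 (-2.33 to -1.05) and -1.58 (-2.09 to -1.07). Isg15, a ubiquitin-like modifier, was 255 CPM in WT, 188 in YAPKO, 93.8 in TAZKO and 106 in DKO. Rtp4, an interferon-induced chaperone of receptors, was 166 CPM in WT, 125 in YAPKO, 63.7 in TAZKO and 56.9 in DKO. These 3 genes were highest in WT and lower in all knockout libraries. Ifi44 ran against them, with 18.4 CPM in WT, 28.5 in YAPKO, 184 in TAZKO and 10.1 in DKO and a ratio of 3.32 (2.23 to 4.67) in TAZKO. It was also highest in TAZKO in cDC1 (44.1, 58.3, 181 and 17.7 CPM) and Kupffer cells (60.7, 58.1, 494 and 44.4 CPM). Gbp2, a guanylate-binding protein induced by interferon gamma, was 5.26 CPM in WT, 19.0 in YAPKO, 8.85 in TAZKO and 52.4 in DKO, highest in DKO.

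**Figure D5:**
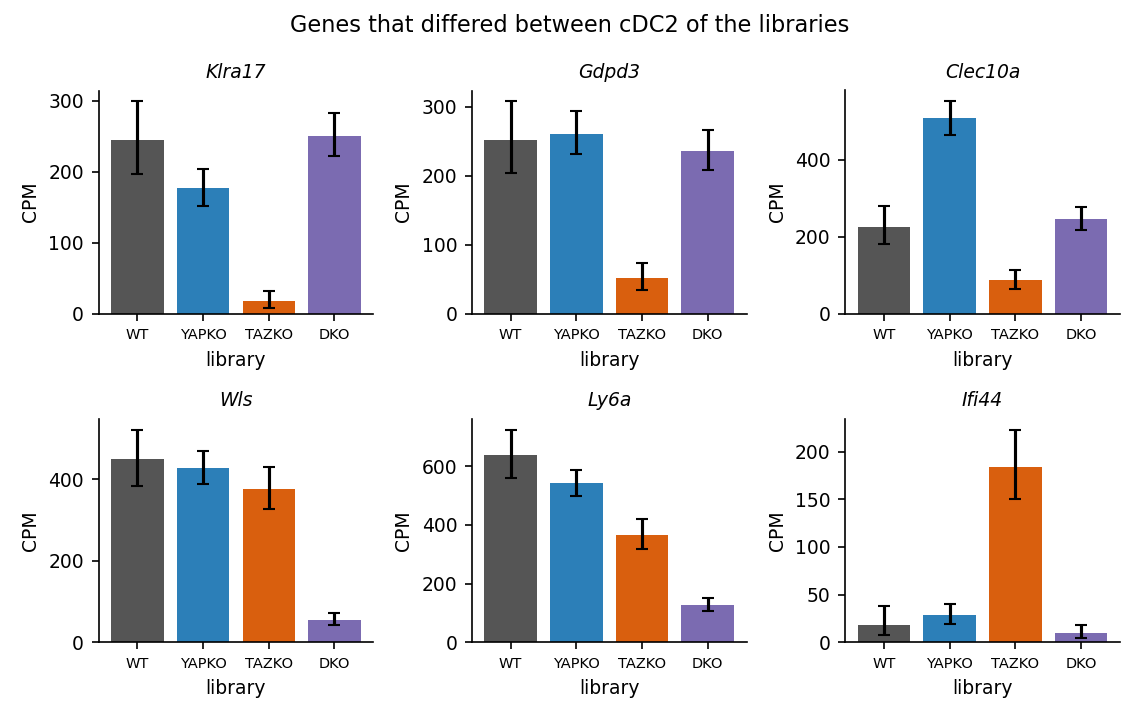
Level in CPM of 6 genes in the cDC2 of each library, with exact Poisson intervals as error bars. Klra17, Gdpd3 and Clec10a are lowest in TAZKO, Wls and Ly6a lowest in DKO, and Ifi44 highest in TAZKO.

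The inducible heat shock genes Hspa1a and Hspa1b were high in WT. Hspa1a, which encodes an inducible HSP70, was 505 CPM in WT, 26.6 in YAPKO, 124 in TAZKO and 70.7 in DKO, with log2 ratios of -4.25 (-4.87 to -3.67), -2.03 (-2.44 to -1.62) and -2.83 (-3.24 to -2.45). Its twin Hspa1b was 778 CPM in WT, 64.5 in YAPKO, 221 in TAZKO and 101 in DKO, with ratios of -3.59, -1.81 and -2.94. The level of Hspa1a in cDC1 (744, 43.7, 55.5 and 112 CPM) and B cells (209, 2.85, 23.1 and 26.5 CPM) was likewise highest in WT. Over the heat shock list, 3 of 9 genes were at least 2-fold lower in YAPKO, 2 of 10 in TAZKO and 3 of 10 in DKO (of all genes 1.61%, 4.29% and 2.61%), while 2 were at least 2-fold higher in TAZKO (of all genes 11.7%), Dnaja1 (137, 123, 329 and 168 CPM) and Hsph1 (34.2, 17.1, 72.5 and 45.0 CPM). The median was -0.34, 0.29 and -0.04, with 0 of the 9 genes above WT in YAPKO, and the summed list was highest in WT (5813, 3772, 5579 and 4783 CPM). Immediate early genes, which respond to dissociation, had medians of -0.47, -0.06 and 0.08. In YAPKO 4 of 16 were at least 2-fold lower (of all genes 1.61%), and 1 of 13 without the carrier cells (2.09%). The median in TAZKO changed sign with thinning (0.68) and without the carrier cells (0.20). In DKO it changed sign with at least 3 lectin UMIs (-0.04), median-of-ratios scaling (-0.02) and the mean of the shares of each cell (-0.07). The part of tissue handling in these values was not tested.

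Genes of the cell cycle were mostly lower than in WT, and most of all in DKO. Of the listed genes 6 of 15 were at least 2-fold lower in YAPKO, 4 of 13 in TAZKO and 10 of 14 in DKO (of all genes 1.61%, 4.29% and 2.61%), and the median log2 ratio was -0.97, -0.75 and -1.63. Without the carrier cells it was -0.59, -0.23 and -1.58, with 2 of 11, 1 of 10 and 9 of 11 genes at least 2-fold lower (of all genes 2.09%, 3.89% and 3.55%). In TAZKO 4 of the 13 genes were above WT, and in DKO 1 of the 14. Mki67, a protein of dividing cells, was 181 CPM in WT, 112 in YAPKO, 108 in TAZKO and 56.9 in DKO, and 121, 116, 121 and 50.5 CPM without the carrier cells. Birc5, an inhibitor of apoptosis needed for cytokinesis, was 208 CPM in WT, 92.0 in YAPKO, 97.3 in TAZKO and 28.5 in DKO, with a ratio of -2.87 (-3.51 to -2.25) in DKO. Pclaf, a partner of the replication clamp PCNA, was 313 CPM in WT, 91.1 in YAPKO, 108 in TAZKO and 63.4 in DKO, with -1.78 (-2.18 to -1.38) in YAPKO. All 3 genes were lowest in DKO, with the carrier cells and without them, but without these cells Mki67 was near the same level in the other 3 libraries.

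Several replication-dependent histone genes, whose products package new DNA, were compared. H2ac8 was 762 CPM in WT, 212 in YAPKO, 384 in TAZKO and 80.8 in DKO, with ratios of -1.85 (-2.11 to -1.59) in YAPKO and -3.24 (-3.60 to -2.89) in DKO. H3c3 was 192 CPM in WT, 51.2 in YAPKO, 53.1 in TAZKO and 18.4 in DKO, with -1.90 (-2.44 to -1.38) in YAPKO and -1.85 (-2.52 to -1.22) in TAZKO. The linker histone gene H1f5 was 229 CPM in WT, 176 in YAPKO, 101 in TAZKO and 45.003 in DKO, with -2.34 (-2.88 to -1.82) in DKO. Dut, which clears dUTP during replication, was 139 CPM in WT, 46.5 in YAPKO, 63.7 in TAZKO and 61.5 in DKO, with -1.58 (-2.17 to -0.99) in YAPKO. All 4 of these genes were highest in WT, also without the carrier cells, whereas the histone gene Hist1h2ap was highest in TAZKO.

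These levels came from few dividing cells, taken as cDC2 with at least 2 UMIs summed over Mki67, Top2a, Birc5 and Ube2c. They numbered 7 of 31 in WT (22.6%), 10 of 82 in YAPKO (12.2%), 10 of 57 in TAZKO (17.5%) and 11 of 116 in DKO (9.48%), and after thinning 22.6% (9.59 to 41.1), 9.76% (4.31 to 18.3), 14.0% (6.26 to 25.8) and 5.17% (1.92 to 10.9). The share was highest in WT and lowest in DKO, as the gene levels were, but the intervals overlapped. Dividing cells held 91.3%, 80.0%, 77.7% and 62.4% of the cell cycle UMIs of the cDC2. The 4 genes that chose them belong to the cell cycle list, so a part of this was built into the choice. Dividing cells were deeper than the others, with a median of 19645 UMIs in WT, 17251 in YAPKO, 11998 in TAZKO and 14150 in DKO, against 9804, 10904, 8482 and 7922. Unthinned shares of dividing cDC1 were 21.6%, 17.9%, 22.2% and 19.0%, with no such order.

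Chemokines of mature cDC2 came from few cells. Ccl17, a ligand of CCR4 that attracts T cells, had 0 UMIs in WT, 125 in 13 cells in YAPKO, 3 in TAZKO and 295 in 8 cells in DKO, or 0, 119, 5.31 and 271 CPM. Against a floor of 3 UMIs in WT it was at least 15.0-fold higher in YAPKO and at least 34.4-fold higher in DKO, while the exact 95% lower limits of its log2 ratio, which are smaller bounds, were 3.59 and 4.8. In these libraries 1 cell held 63 and 127 of the UMIs. Ccl22, the other ligand of CCR4, had 0, 5, 0 and 61 UMIs. Ccr7, the receptor that guides mature cells to lymph nodes, had 0, 6, 1 and 4 UMIs. Cxcl9, a ligand of CXCR3, was 10.5 CPM in WT, 14.2 in YAPKO, 28.3 in TAZKO and 129 in DKO in cDC2, a log2 ratio of 3.61 (2.22 to 5.51) in DKO, and 37.8, 78.1, 382 and 319 CPM in cDC1. Ccl5 was 197 CPM in WT, 28.5 in YAPKO, 77.9 in TAZKO and 83.6 in DKO, but 73 of its 75 UMIs in WT came from 1 cell. Ccl17 was thus seen in a minority of the cDC2, and Ccl5 in WT in 2.

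Several genes that were highest in a knockout library also drew most of their UMIs there from 1 cell. Apoa4, an apolipoprotein, was 13.1 CPM in WT, 395 in YAPKO, 19.5 in TAZKO and 15.6 in DKO, with 401 of 416 UMIs in 1 cell of YAPKO. Wfdc18 had 0, 147, 1 and 1 UMIs, 125 of them in 1 cell. Against the floor of 3 UMIs in WT it was at least 17.7-fold higher in YAPKO, while the exact 95% lower limit of its log2 ratio, a smaller bound, was 3.83. Spp1, which encodes osteopontin, was 2.63 CPM in WT, 206 in YAPKO, 120.3 in TAZKO and 3.67 in DKO, with 127 of 217 UMIs in 1 cell of YAPKO and 62 of 68 in 1 cell of TAZKO. The keratin gene Krt18 was 10.5 CPM in WT, 130.0 in YAPKO, 23.0 in TAZKO and 27.6 in DKO, with 87 of 137 UMIs in 1 cell of YAPKO. None of these values describes the typical cDC2.

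Transcripts of hepatocytes were found in the cDC2 of every library. Listed hepatocyte markers summed to 7833 CPM in WT, 12969 in YAPKO, 21004 in TAZKO and 11647 in DKO, led by Mup20 in WT and by Alb elsewhere, with 17 of 18 detected in WT and 18 of 18 in the others. The median log2 ratio of the list was 1.07, 1.53 and 0.58, but without the carrier cells it was -1.22, -0.17 and -1.18. Without them 9 of 14 genes were at least 2-fold lower in YAPKO, 3 of 12 in TAZKO and 9 of 14 in DKO (of all genes 2.09%, 3.89% and 3.55%). Because carrier cells were chosen in part by these markers, a fall without them was built into the choice. Scd1, a desaturase of fatty acids, was 52.6 CPM in WT, 564 in YAPKO, 579 in TAZKO and 81.7 in DKO, and 535 of its 594 UMIs in YAPKO came from 1 cell. Its ratio was 3.46 (2.81 to 4.19) in TAZKO, where B cells were highest too (432, 298, 1359.6 and 437 CPM). Car3, a carbonic anhydrase, was 15.8 CPM in WT, 14.2 in YAPKO, 315 in TAZKO and 79.9 in DKO, with 4.32 (3.17 to 5.79) in TAZKO. Mup11, a major urinary protein, was 292 CPM in WT, 11.4 in YAPKO, 3.54 in TAZKO and 0.918 in DKO, and B cells held 973, 42.8, 0.481 and 4.14 CPM. Scd1 and Car3 were highest in TAZKO and Mup11 in WT in cDC2 as in B cells.

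Tat, an enzyme of tyrosine breakdown, was 18.4 CPM in WT, 48.4 in YAPKO, 169.9 in TAZKO and 136 in DKO, with ratios of 3.21 (2.11 to 4.56) in TAZKO and 2.89 (1.81 to 4.22) in DKO. The urate oxidase gene Uox was 26.3 CPM in WT, 67.4 in YAPKO, 173 in TAZKO and 154 in DKO, with 2.55 (1.64 to 3.64) in DKO. Complement C3 was 28.9 CPM in WT, 182 in YAPKO, 235 in TAZKO and 225 in DKO, with 3.03 (2.14 to 4.06) in TAZKO and 2.96 (2.10 to 3.98) in DKO. Without the carrier cells these genes were far lower in the knockout libraries and slightly lower in WT, with 13.5, 12.9, 32.7 and 37.2 CPM for Tat, 23.6, 10.0, 45.8 and 39.9 for Uox and 20.2, 35.7, 39.3 and 70.5 for C3. Apob, the protein of very low density lipoprotein, was 28.9 CPM in WT, 167 in YAPKO, 225 in TAZKO and 108 in DKO, and 27.0, 12.9, 94.9 and 18.6 CPM without them. Listed hepatocyte markers made up a median of 0.578%, 0.117%, 0.420% and 0.161% of the UMIs of a cDC2 in WT, YAPKO, TAZKO and DKO. The highest cell held 3.85%, 22.8%, 22.5% and 22.1%. Hepatocyte transcripts were thus spread unevenly over the cDC2. Their part in the other results was not tested beyond the values without the carrier cells.

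Maf, Aqp1, Cd36, Lyve1 and F8 were high in the knockout libraries mainly through the carrier cells. Maf, a transcription factor, was 57.8 CPM in WT, 315 in YAPKO, 439 in TAZKO and 319.6 in DKO, with log2 ratios of 2.92 (2.29 to 3.62) in TAZKO and 2.47 (1.85 to 3.16) in DKO, but 13.5, 8.58, 9.81 and 16.0 CPM without the carrier cells. The water channel gene Aqp1 was 42.0 CPM in WT, 279 in YAPKO, 357 in TAZKO and 201 in DKO, with 3.09 (2.35 to 3.92) in TAZKO, and 0, 7.15, 6.54 and 3.99 CPM without them. Cd36, a scavenger receptor, was 13.1 CPM in WT, 122 in YAPKO, 156 in TAZKO and 172 in DKO, with 3.71 (2.46 to 5.35) in DKO, and 0, 11.4, 0 and 16.0 CPM without them. Lyve1, a hyaluronan receptor, was 5.26 CPM in WT, 105 in YAPKO, 67.2 in TAZKO and 32.1 in DKO, with 4.32 (2.44 to 7.39) in YAPKO, and 0, 0, 0 and 1.33 CPM without them. F8, the gene of clotting factor VIII, was 15.8 CPM in WT, 175 in YAPKO, 111 in TAZKO and 96.4 in DKO, with 3.47 (2.32 to 4.93) in YAPKO, and 0, 1.43, 0 and 3.99 CPM without them. All 5 genes were far lower in the 3 knockout libraries once these cells were left out. Kit, the receptor for stem cell factor, was different, with 7.88 CPM in WT, 77.8 in YAPKO, 54.9 in TAZKO and 76.2 in DKO and 10.1, 30.02, 39.3 and 30.6 CPM without the carrier cells. Its level in WT came from 3 UMIs, and cDC1 held 81.8, 85.4, 78.3 and 88.7 CPM.

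Lists of further cell types were summed as well. Biliary markers summed to 99.9 CPM in WT, 412 in YAPKO, 186 in TAZKO and 118 in DKO, led by Epcam in WT and DKO and by Spp1 in YAPKO and TAZKO, with 2, 7, 7 and 5 of 7 detected. Of these Krt7, Krt8, Krt19 and Cldn7 had 0 UMIs in WT and 32, 55, 30 and 15 in YAPKO, of which 30, 34, 17 and 9 were in 1 cell for each gene. Stellate cell markers summed to 23.7 CPM in WT, 270.4 in YAPKO, 313 in TAZKO and 80.8 in DKO, led by Ecm1 in WT and DKO and by Dcn in YAPKO and TAZKO, with 5, 8, 9 and 9 of 10 detected. T cell markers summed to 26.3 CPM in WT, 45.5 in YAPKO, 19.5 in TAZKO and 64.3 in DKO, with Cd3e at 0 by the selection and 3, 7, 3 and 8 of 10 detected, led by Cd3g, Il7r, Cd4 and Il7r. B cell markers summed to 121 CPM in WT, 123 in YAPKO, 173 in TAZKO and 97.4 in DKO, led by Ighm, with 2, 5, 7 and 4 of 9 detected and Cd79a at 0 by the selection. Neutrophil markers summed to 2.63 CPM in WT, 15.2 in YAPKO, 3.54 in TAZKO and 72.6 in DKO, led by Csf3r and in DKO by S100a8, with 1, 5, 2 and 7 of 10 detected. Kupffer cell markers stood out in 1 library, with 84.1 CPM in WT, 258 in YAPKO, 145 in TAZKO and 1101 in DKO, led by C1qb in DKO, with 10, 12, 11 and 12 of 12 detected.

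In DKO, 13 of 116 cDC2 held at least 10 UMIs of the complement genes C1qa, C1qb and C1qc, and these held 95.7% of the 1027 such UMIs, against 0 cells in WT, 1 in YAPKO and 1 in TAZKO. This grouping was made after the data were seen and is a description. Lyz2 was 4892 CPM in the 13 cells and 834 in the other 103, Apoe 6023 and 1242, and Csf1r, the receptor for macrophage growth factor, 454 and 154. Flt3 was 18.1 CPM, from 3 UMIs, and 97.5, and Cd7 6.05 and 125. Of the selection genes, Cd209a was 580.5 CPM in the 13 cells, from 8 of them, and 1202 in the others, from 101, while Mgl2 was 351 and 302 CPM and H2-Aa 9481 and 11293. Clec10a was 133 and 266 CPM. The selection itself kept Timd4, Clec4f and Vsig4 low (0, 1 and 1 UMIs in the 13 cells). Of the Kupffer cell markers it did not use, Marco had 1 UMI in the 13 cells and Cd5l 16, in 2 of them, or 96.7 CPM against 3.25 in the others. These cells thus passed the selection but were low in Flt3 and Zbtb46 (3 UMIs) and high in macrophage genes, so the label holds for them less well than for the others.

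Genes were also sought with at least 2-fold higher levels in both libraries without YAP in hepatocytes, YAPKO and DKO, than in both WT and TAZKO. With at least 100 UMIs over the 4 libraries there were 6 of 4267 (0.141%) and 5 in the opposite direction (0.117%), and with at least 50 UMIs 20 and 12, numbers that 4 libraries give no means to test. Among the higher genes were C1qb, Ccl17, the lysosomal membrane protein gene Cd63, the ribonuclease gene Ear2 and the glucocorticoid-induced Fkbp5. In DKO 470 of the 495 UMIs of C1qb and 45 of the 59 of Cd63 came from the 13 cells above. Fkbp5 was 26.3 CPM in WT, 66.4 in YAPKO, 14.2 in TAZKO and 92.8 in DKO, and cDC1 held 28.3, 62.5, 13.1 and 63.9 CPM. Ear2 was 28.9 CPM in WT, 73.1 in YAPKO, 12.4 in TAZKO and 70.7 in DKO, and 37.1, 94.4, 22.9 and 67.8 CPM without the carrier cells, a ratio of 0.87 in DKO and so under 2-fold. Lower in both were Mup21, Gm43305, the histone genes Hist1h2ap and H2ac4, and Hspa1b, of which Hist1h2ap was 378 CPM in WT, 130.0 in YAPKO, 541 in TAZKO and 103 in DKO. Of 18 listed target genes of YAP only 3, 1 and 2 could be compared, too few to show a pattern, with medians of 0.19, -0.30 and 0.52. In YAPKO 1 of the 3 was at least 2-fold higher (of all genes 6.78%). Genes of the Hippo pathway had medians of -0.17, 0.69 and 0.24 with 0 genes past 2-fold. Of these, 1 of 6, 5 of 5 and 7 of 7 lay above WT (of all genes 1992 of 3909, 1532 of 2842 and 2132 of 3980).

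The cDC2 also differed among themselves within each library. Cd7, a surface protein of the immunoglobulin family, was 197 CPM in WT, 94.9 in YAPKO, 88.5 in TAZKO and 107 in DKO and was counted in 16 of 31, 22 of 82, 21 of 57 and 40 of 116 cDC2, in cells of much the same depth as the rest (a median of 10986, 11523, 8613 and 8623 UMIs with Cd7 and 11593, 10973, 8935 and 8104 without). In B cells at most 0.875% of cells of a library held a Cd7 UMI. Cells with Cd7 had less Mgl2 in each library, with 58.0, 152, 34.9 and 40.8 CPM against 749, 756, 305 and 460.5 without Cd7, though the selection by Cd209a or Mgl2 shaped this contrast. They also had less Csf1r, with 84.3, 50.5, 99.7 and 107 CPM against 162, 103, 181 and 251, and less of the monocyte chemokine receptor Ccr2, with log2 ratios of -0.78, -1.01, -0.68 and -0.72, whereas other genes shared with monocytes were not lower throughout, Lyz2 being higher with Cd7 in TAZKO (0.58) and Cx3cr1 in YAPKO (0.59). S100a4 was higher in cells with Cd7, with log2 ratios of 1.16, 0.13, 0.84 and 0.75, and so was the cytokine gene Ltb, with 1.01, 0.81, 1.14 and 0.32. In all 4 libraries, cDC2 without Cd7 thus held more Csf1r and Ccr2, by a split made after the data were seen. In DKO only 1 of the 13 cells with C1q UMIs described above held Cd7. Their Csf1r was 454 CPM, against 154 in the other 103, and the contrast by Cd7 without them was not measured.

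The 31 cDC2 of WT set the precision of every ratio, and a gene with few UMIs there has a wide interval. For a least fold, a count of 0 in WT was set to the floor of 3 UMIs, or 7.88 CPM, and its exact upper limit is 9.69 CPM. The cells were found by few transcripts, so a shallow cell was more easily missed. Cells with H2-Aa under the limit were most frequent in TAZKO and DKO, where 40 and 67 lectin-positive cells failed it. Only 2 and 3 of these failed this limit alone. Carrier cells were left in, because the selection does not remove them. Depth differed between the libraries, and a difference in dissociation or mixing cannot be told apart from genotype. Proteins, cell positions and function were not measured.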

How the data were processed

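Single-cell RNA of 4 mouse livers, 1 mouse and 1 library for each of WT, YAPKO, TAZKO and DKO, was measured with 10x Chromium 3′ v3.1 chemistry. Reads were mapped by the authors with Cell Ranger on build mm10 (version 6.0.1 by the submitters' notes, 4.0.0 by the matrix headers), and they deposited counts of UMIs per gene and barcode, without normalization, for 55488 genes. Cells were kept if they had between 500 and 6000 genes and no more than 10% of UMIs from mitochondrial genes, 7155 in WT, 6275 in YAPKO, 8638 in TAZKO and 8294 in DKO, with medians of 4618, 7337, 3555.5 and 5952.5 UMIs. The cDC2 were taken from them by limits on 13 genes stated in the report. Comparison groups held 0 UMIs of Cd209a and Mgl2 and at least 2 UMIs of Xcr1 plus Clec9a (cDC1), Siglech (plasmacytoid cells), Cd79a (B cells) or F13a1 plus Chil3 (monocytes), or at least 5 of Clec4f, Vsig4 and Timd4 (Kupffer cells), with limits on the markers of the other groups. The rule for the members and the lists of genes were chosen with earlier results of these data known.

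UMIs were summed over the cDC2 of a library and scaled to CPM. Intervals at 95% were exact, from the Poisson distribution for levels, the conditional binomial for each ratio and Clopper-Pearson limits for shares. With 1 library per genotype, no test was made. Ratios of single genes to WT had no count added, and where WT held 0 UMIs a least fold was given against a floor of 3 UMIs. With 1 added to each count were the counts of genes past 2-fold, list medians, ratios by Cd7 and ranges over the alternatives. In the cDC2, 1 UMI stood for 0.918 to 2.63 CPM. The calculation was tested on simulated data. Genes were named from the 34 lists, and by rank, for each library the 8 highest and the 8 lowest ratios to WT (1 added to each count, at least 100 UMIs), and the 10 genes furthest above and below cDC1, leaving out mitochondrial, ribosomal, Gm and Rik genes and listed markers of other cell types. The groups with C1q UMIs and with Cd7, the carrier cells, and single genes outside this rule were chosen after their values were seen.

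Alternatives were the limits on lectin UMIs (3), H2-Aa (20) and mitochondrial UMIs (20%), the top 8% of Scrublet scores left out, thinning to 2000 UMIs, other scalings, the mean of the shares of each cell, and minimums of 1, 20 and 200 UMIs. The added alternative left out carrier cells. The tools were scanpy 1.11.5, anndata 0.12.19, pandas 2.3.3, scipy 1.17.1, numpy 2.4.6 and matplotlib 3.10.9 under Python 3.11.15.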

Additional observations from a re-analysis of the deposited data

How the results depend on the processing

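Of 48 named gene ratios, 43 had the same sign under every alternative run and 38 were past 2-fold under each of them. Limits of 20% mitochondrial UMIs and of 20 H2-Aa UMIs moved no count by more than 1.5 times. Over the alternatives, with 1 added to each count, the ratio of Klra17 in TAZKO ranged from -3.91 to -2.38 (-3.67 in the main setting). That of Wls in DKO ranged from -4.18 to -2.97 (-3.01) and that of Ly6a in DKO from -3.08 to -2.14 (-2.32). The median of the class II genes in TAZKO ranged from -1.24 to -0.76 and that of the cell cycle genes in DKO from -1.72 to -1.25.

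Leaving out the carrier cells, an alternative chosen after seeing the data, gave shares of 1.00% in YAPKO, 0.428% in TAZKO and 1.13% in DKO, and 54, 83 and 103 higher genes, with 65 lower in TAZKO. Applying the limits after thinning each cell gave 18 cDC2 of 5838 cells in WT, 68 of 5847 in YAPKO, 33 of 6357 in TAZKO and 82 of 7518 in DKO. The share of DKO was then 1.09%, below that of YAPKO. Leaving out the top 8% of Scrublet scores gave 106, 150 and 151 higher genes, and at least 3 lectin UMIs gave 168 higher in YAPKO. Median-of-ratios scaling gave 224 higher and 254 lower in TAZKO. Thinned cDC2 gave 15, 24 and 28 higher and 15, 25 and 28 lower genes of 580, 446 and 779 compared. Higher genes were 2.59%, 5.38% and 3.59% of these, and lower genes 2.59%, 5.61% and 3.59%. The excess of higher genes was thus not kept, for a cause that was not tested. With a minimum of 1 UMI, 1549, 3392 and 1597 genes were higher and 1993, 1737 and 2058 lower; with 20 UMIs, 671, 984 and 733 higher and 234, 290 and 313 lower; with 200 UMIs, 49, 47 and 46 higher and 13, 26 and 23 lower. For genes shared by YAPKO and DKO, a minimum of 50 UMIs gave 20 higher and 12 lower.

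Some values changed sign. Without the carrier cells, the hepatocyte median was -1.22 in YAPKO and -0.17 in TAZKO, the endothelial median -0.47 in YAPKO from the 1 gene left to compare (in DKO, also from 1 gene, it stayed positive at 1.08), the lipid and lysosomal median -0.33 in DKO, and the ratios (1 added to each count) of Lyve1 -1.24 and F8 -0.24 in YAPKO and of Maf -0.37 in TAZKO. Without the top Scrublet scores, the endothelial median was -0.62 in YAPKO and -1.07 in TAZKO, and Lyve1 and F8 were each -0.02 in YAPKO. With at least 3 lectin UMIs, the hepatocyte median was -0.85 and Apoa4 -0.03 in YAPKO. The hepatocyte median in YAPKO was -0.27 with the mean of the shares of each cell and -0.24 with thinning. In DKO, where this median was 0.58, it was -1.18 without the carrier cells, -0.04 without the top Scrublet scores, -0.27 with the mean of the shares and -0.19 with thinning. For the values beyond those the construction explains, the cause was not tested.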
